A study of Mus musculus with 30 samples.

Results

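The genes described here fold, check and degrade proteins in the endoplasmic reticulum (ER), or carry the signals of the unfolded protein response. They were taken by name from a list of 38 genes, of which 37 were found among the 14475 genes of the expression table; Trib3 was not analysed here. Of the 37 genes, 36 reached a mean of 0.5 FPKM (fragments per kilobase of transcript, scaled to the mapped reads of the library) in every fit and entered the tests. The exception was Derl3, a derlin of secretory cells, which did not exceed 0.79 FPKM in any library.

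RNA was sequenced from 30 pieces of colon tissue of female mice, 15 from the ascending and 15 from the descending colon, with 8 mutants and 7 controls in each region. Mutants carried C1galt1 f/f; VillinCre-ERT2; C3GnT-/-, which is called TM-DKO in the protocols and TM-DKOAsc in the genotype label of both regions. Villin drives the tamoxifen-dependent Cre in intestinal epithelium, so that loss of C1galt1 was induced in epithelial cells after birth, whereas C3GnT (the gene B3gnt6) was deleted in every cell. C1galt1 and C3GnT make the core 1 and core 3 O-glycans that coat Muc2. Controls were WT littermates. Mutants and controls alike received 0.5 mg tamoxifen daily for 5 days, and tissue was taken 5 or 10 days later; the labels do not say which for any library. The mice came from 3 cages that shared a microbiota. Cage A was labelled with a C57BL/6 background and an age of 3.4 months, and cages B and C with a mixed BL/6-129SvJ background and ages of 2.6 and 3.2 months, whereas the growth protocol gives a mixed C57BL/6J and 129/SvImJ background for all mice. Cage, age and, if the label holds, strain cannot be told apart between cage A and the others. In the ascending and in the descending colon, cage A held 3 mutants and 2 controls, cage B held 2 mutants and 3 controls, and cage C held 3 mutants and 2 controls. Libraries are named below by region, genotype, cage and number.

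Proteins that enter the secretory pathway cross the ER membrane through the Sec61 channel, are held by chaperones such as BiP (Hspa5), gain disulfide bonds and N-glycans, and are sent back to the cytosol for degradation if they fail to fold. Several membrane sensors watch the load. IRE1 (Ern1) splices the Xbp1 transcript into the form that encodes an active factor, ATF6 is cut to release another factor, and PERK (Eif2ak3) slows translation and raises Atf4 and Ddit3. Goblet cells of the colon fold and disulfide-link Muc2, the gel-forming mucin of colonic mucus, and they express another form of IRE1, Ern2, and the Muc2-binding disulfide isomerase Agr2. FPKM of Xbp1 counts its spliced and unspliced transcripts together.

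Many genes of this set carry the ER stress response element (ERSE) near their start, the letters CCAAT, 9 bases of any kind, then CCACG. The element is shown because ATF6 and XBP1 are known to act through it. Promoters of RefSeq (GRCm38.p6; 250 bases before to 50 bases after each start) were available for 30 of the 37 genes, and the ERSE letters were searched on both strands. They were found in 9 of the 30 promoters, against 18 of 11337 promoters of the whole table (0.159%), so that 9 of the 18 matching promoters of the table belonged to the listed genes. None of 93 promoters of other ER genes held them. The 9 genes were Hspa5, Hsp90b1 (with 2 matches), Dnajc3, Creld2, Calr, Canx, Pdia6, Syvn1 and Derl3. Stretches of 40 bases around 6 of the matches are given on the strand of each gene, 5′ to 3′, with the CCAAT and CCACG letters in capitals, or with their reverse complements in capitals for Creld2, whose match lies on the opposite strand.
Hspa5, chr2:34772014-34772053, + strand: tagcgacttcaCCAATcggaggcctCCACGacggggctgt
Pdia6, chr12:17266480-17266519, + strand: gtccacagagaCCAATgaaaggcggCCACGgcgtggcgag
Canx, chr11:50325790-50325829, - strand: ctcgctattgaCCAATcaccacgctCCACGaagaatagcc
Dnajc3, chr14:118937816-118937855, + strand: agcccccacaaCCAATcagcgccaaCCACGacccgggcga
Syvn1, chr19:6046521-6046560, + strand: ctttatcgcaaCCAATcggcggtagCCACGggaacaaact
Creld2, chr15:88819509-88819548, + strand: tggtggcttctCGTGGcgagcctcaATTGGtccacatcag
The first capital letter lies at position -65 from the RefSeq start in Hspa5, -98 in Pdia6, -145 in Canx, -105 in Dnajc3, -44 in Syvn1 and -126 in Creld2. A shorter variant, ERSE-II (ATTGG, 1 base, CCACG), was found in Dnajb11 and Herpud1, 2 of 30 promoters (6.67%) against 9 of 11337 (0.0790%). The letters TGACGTG, a core of the XBP1-bound element, were found in 1 of 30 promoters (3.33%), that of Hspa5, against 360 of 11337 (3.18%). The letters TTGCATCA, a form of the ATF4-bound element, were found in 1 of 30 promoters, that of Herpud1, against 87 of 11337 (0.767%). A match of letters is a description of the promoter and not evidence of a bound site.

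Depth was estimated from the steps between low FPKM values, since the table holds no counts. It was 1.46 to 7.76 M reads in ascending mutants, 3.37 to 6.94 M in ascending controls, 6.5 to 9.0 M in descending mutants and 3.21 to 9.0 M in descending controls. Ascending mutants A1, A2 and A3 were at 1.51, 1.55 and 1.46 M, against 6.94 and 6.43 M in ascending controls A1 and A2. Depth and genotype therefore cannot be told apart within cage A of the ascending colon. The targeted genes gave a partial check of the labels. C1galt1 ran from 18.3 to 34.3 FPKM in ascending mutants against 21.5 to 45.7 FPKM in ascending controls, and from 14.6 to 36.7 FPKM in descending mutants against 28.0 to 38.7 FPKM in descending controls, so the ranges overlapped in both regions. B3gnt6 did not exceed 0.53 FPKM in ascending mutants, and among ascending controls it ran from 0.11 to 19.5 FPKM and was high only in controls B1 and B2. It did not exceed 0.06 FPKM in descending mutants and 0.43 FPKM in descending controls, so it checks no label there. Of the markers of distal colon, Hoxd13 and Hoxd12 were listed at 0 in every ascending library, but the sum of the whole list was 32.0 FPKM in ascending control B1, against 0.10 to 10.9 FPKM in the other 14 ascending libraries.

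A few libraries stood apart, and the results that rest on them are given with and without them. Descending mutant C1 had the lowest summed FPKM of its region (201203, against 219001 to 270396 in the other 14 libraries). It had the lowest sum of 11 heat shock genes of the cytosol and mitochondria (151 FPKM, against 285 to 510). It also had the highest sum of red blood cell genes (173 FPKM, against 1.41 to 82.5). It was the lowest of the 8 descending mutants for 28 of the 36 tested genes and the highest for 5. Ascending mutant B1 also had the lowest heat shock sum of its region (169 FPKM, against 189 to 351) and was the lowest ascending mutant for 22 of the 36 genes. Descending mutant A3 was at the other end, the highest of its group for 24 genes. Descending control A2 had a sum of distal colon markers of 66.0 FPKM, against 333 to 485 in the other descending libraries, and its Muc2 of 2136 FPKM was the highest of the region. Ascending control B1, which had the highest sum of distal markers of its region, also had a smooth muscle marker sum of 426 FPKM, against 9.18 to 102 in the other ascending libraries. In pieces of whole tissue, fewer cells of a type and less RNA per cell cannot be told apart.

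**Figure D1:**
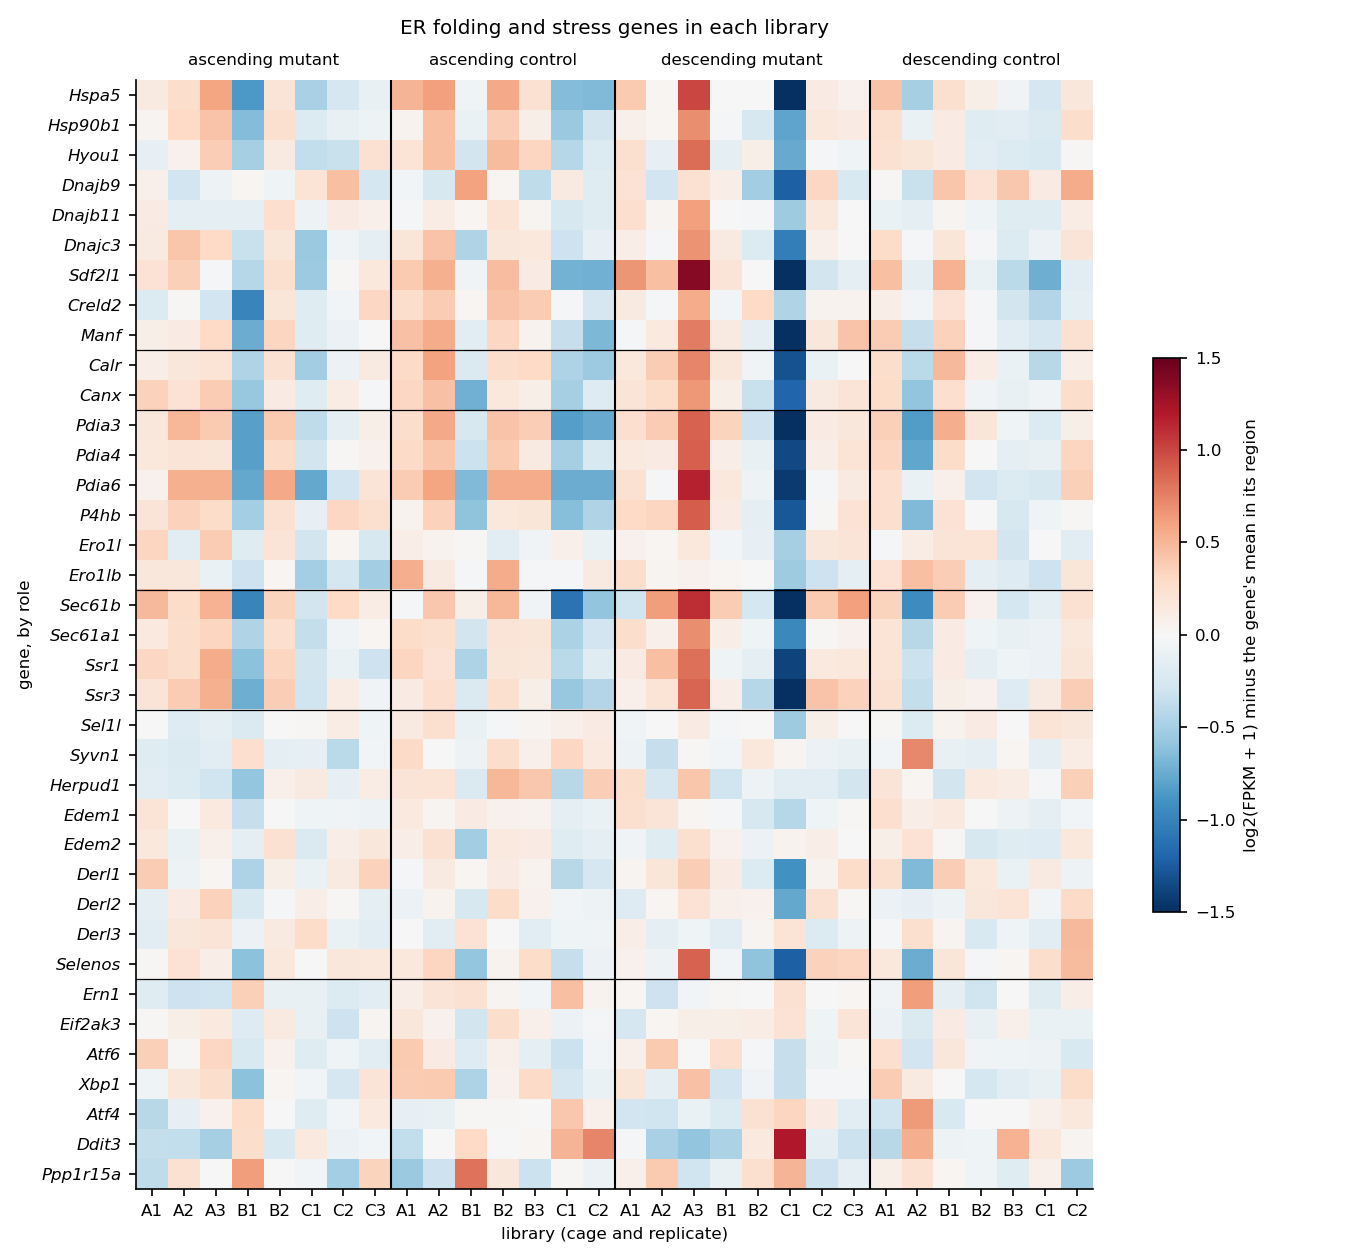
Heatmap of the 37 genes (ordered by role, down the page) in the 30 libraries (columns, by region, genotype and cage); colour is log2(FPKM + 1) minus the mean of that gene over the 15 libraries of its region, on a scale that ends at 1.5 units in either direction. Most chaperone, isomerase and translocon genes are low together in descending mutant C1 and high together in descending mutant A3, while Ddit3 runs the other way in descending mutant C1.

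Levels, which FPKM gives per length of transcript, spanned a wide range within the set. The protein disulfide isomerase P4hb had the highest median over the 30 libraries, 202 FPKM, followed by the calcium-binding lectin Calr at 182 FPKM and the glycoprotein isomerase Pdia3 at 121 FPKM. Next came the membrane lectin Canx at 83.3 FPKM, the ER form of HSP90 Hsp90b1 at 80.8 FPKM and the HSP70-type chaperone Hspa5 at 70.4 FPKM. The sensors were far lower: Ern1 had a median of 14.1 FPKM, Eif2ak3 of 11.6 FPKM and Atf6 of 9.88 FPKM. At the low end were Ppp1r15a, which brings the phosphatase that reverses the action of PERK, at 5.22 FPKM, the thiol oxidase Ero1lb at 1.37 FPKM and Derl3 at 0.195 FPKM. Of the plasma cell markers, 9 of 12 were in the table, with a summed level of 108 to 271 FPKM; Xbp1 and Derl3 are themselves on that list. Of the pancreatic acinar markers 1 of 9, Cela1, was in the table.

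The first comparison asked whether loss of O-glycans changed the ER genes in the ascending colon. In ascending mutants against ascending controls, none of the 36 genes passed the threshold (limma, Benjamini-Hochberg adjusted p under 0.05 over 12178 genes). The share called among all genes was 0.0% as well. At an unadjusted p under 0.05, 4 of the 36 genes and 1396 of the 12178 genes differed. The 36 differences split evenly, 18 above 0 and 18 below, with a median of -0.0047 log2 units against -0.05 for all genes, and they ran from -0.35 to 0.24. All 4 genes with the lowest p were lower in mutants.

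Ero1lb, whose product makes disulfide bonds de novo, ran from 0.68 to 1.71 FPKM (median 1.13) in ascending mutants against 1.37 to 2.53 FPKM (median 1.64) in ascending controls. The groups overlapped, and the difference was -0.35 ± 0.12 log2 units (SE; adjusted p = 0.34). Ddit3 encodes CHOP, a factor induced by prolonged ER stress. It ran from 6.86 to 12.3 FPKM (median 8.97) in ascending mutants against 7.62 to 17.5 FPKM (median 10.3) in ascending controls. Its difference was -0.31 ± 0.11 (adjusted p = 0.34), and the 2 highest levels, 17.5 and 14.8 FPKM, were both controls of cage C. Syvn1, the ubiquitin ligase of ER-associated degradation, ran from 14.2 to 23.0 FPKM (median 17.1) in ascending mutants against 18.0 to 23.9 FPKM (median 21.2) in ascending controls, with a difference of -0.26 ± 0.10 (adjusted p = 0.37). Only ascending mutant B1, at 23.0 FPKM, and mutant C3, at 18.4 FPKM, reached the range of the controls. The sensor Ern1 ran from 10.1 to 16.6 FPKM (median 11.1) in ascending mutants against 12.4 to 17.7 FPKM (median 13.7) in ascending controls. Here too mutant B1, at 16.6 FPKM, was the only mutant in the control range, and the difference was -0.26 ± 0.11 (adjusted p = 0.38). Within cages A, B and C the mutant minus control difference of Ern1 was -0.40, 0.04 and -0.41, and that of Syvn1 was -0.33, -0.03 and -0.41. Ero1lb was lower in mutants within each cage, by -0.26, -0.31 and -0.49, and Ddit3 was too, by -0.22, -0.09 and -0.62.

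The principal chaperone and other factors of the response had smaller differences for their error. Hspa5 (chromosome 2, 34771970 to 34777547) ran from 32.4 to 90.8 FPKM (median 60.5) in ascending mutants against 37.6 to 92.4 FPKM (median 70.3) in ascending controls, and the groups spanned nearly the same range. The difference was -0.15 ± 0.18 (adjusted p = 0.77), and within cages A, B and C it was -0.23, -0.58 and 0.37. Xbp1 ran from 35.5 to 66.3 FPKM (median 55.0) in ascending mutants against 39.7 to 72.3 FPKM (median 57.7) in ascending controls, a difference of -0.12 ± 0.14 (adjusted p = 0.74). Atf4 differed by -0.06 ± 0.10 (adjusted p = 0.84). Creld2, a secreted ER chaperone, differed by -0.33 ± 0.17 (adjusted p = 0.47) and Sel1l, the partner of Syvn1, by -0.15 ± 0.08 (adjusted p = 0.46). Muc2 differed by 0.05 ± 0.29 (adjusted p = 0.96). Of 116 other ER genes tested from a longer list, none was called, 54 were above 0, and 7 had an unadjusted p under 0.05. Among them Ern2 differed by -0.33 ± 0.21, Agr2 by 0.36 ± 0.30 and Creb3l1, a goblet cell factor for secretory capacity, by -0.27 ± 0.18. Markers of other cell types moved with genotype in these libraries: the summed smooth muscle markers had a median of 26.5 FPKM in ascending mutants against 66.8 FPKM in ascending controls, the fibroblast markers 32.8 against 62.1 FPKM, and the absorptive colonocyte markers 15109 against 9439 FPKM. Their part in the differences above was not tested.

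The same question was asked of the descending colon, where no gene of the set came near the threshold. None of the 36 genes was called in descending mutants against descending controls, and the share called among all 12219 genes was 0.0% (limma). At an unadjusted p under 0.05 there were 0 of the 36 genes and 267 of all genes. The differences had a median of -0.01, against -0.04 for all genes, and ran from -0.35 to 0.18, with 15 above 0. Dnajb9, a BiP co-chaperone that is also a target of XBP1, ran from 3.48 to 12.1 FPKM (median 9.11) in descending mutants against 7.36 to 14.4 FPKM (median 11.2) in descending controls. The difference was -0.35 ± 0.22 with an unadjusted p of 0.13, and the lowest level was that of mutant C1. Hspa5 ran from 20.6 to 142 FPKM (median 72.9) in descending mutants against 49.6 to 95.0 FPKM (median 74.9) in descending controls, a difference of -0.02 ± 0.28. Both ends of that range were mutants, C1 and A3. Eif2ak3 differed by 0.13 ± 0.09, Creld2 by 0.18 ± 0.12, Herpud1, a scaffold of ER-associated degradation, by -0.18 ± 0.13 and Ero1lb by -0.16 ± 0.13. Xbp1 differed by -0.12 ± 0.12, Atf4 by -0.11 ± 0.15, Ddit3 by -0.19 ± 0.23 and Muc2 by -0.05 ± 0.32. All adjusted p-values of the 36 genes were at least 0.999. Of 115 other ER genes none was called and 1 had an unadjusted p under 0.05; Ern2 differed by -0.01 ± 0.32, Agr2 by 0.36 ± 0.28 and Creb3l1 by 0.12 ± 0.16.

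**Figure D2:**
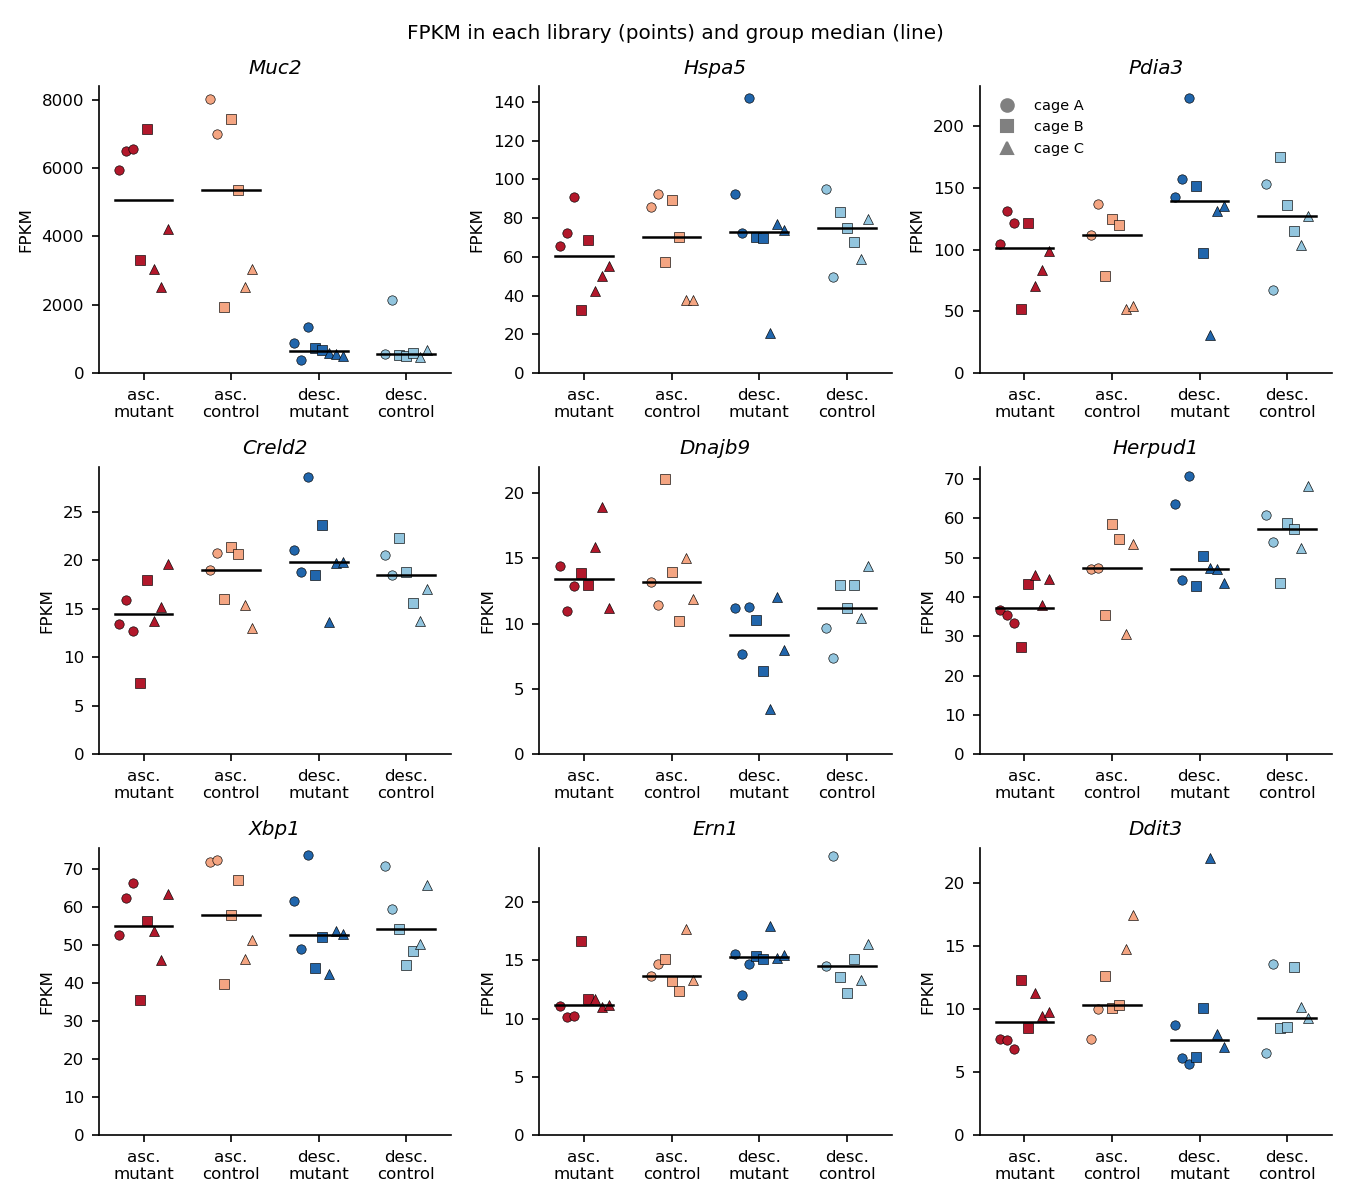
FPKM (linear y axes) of Muc2 and 8 ER genes in each of the 30 libraries by group (x axis: ascending mutant, ascending control, descending mutant, descending control); marker shape gives the cage and the line is the group median. Muc2 separates the regions, with medians of 5070 and 5345 FPKM in the ascending groups and of 630 and 548 FPKM in the descending groups, while Hspa5, Pdia3 and Xbp1 overlap across all 4 groups.

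Whether the mutant minus control difference itself differed between regions was tested in 1 fit of both regions, as an interaction. None of the 36 genes was called (limma), nor was any of 12353 genes (0.0%), and 1 of the 36 genes and 198 of all genes had an unadjusted p under 0.05. That gene was Creld2, with a difference of differences of -0.51 ± 0.22 (unadjusted p = 0.029). Its values were 7.37 to 19.6 FPKM (median 14.4) in ascending mutants against 12.9 to 21.4 FPKM (median 19.0) in ascending controls, and 13.6 to 28.5 FPKM (median 19.8) in descending mutants against 13.7 to 22.2 FPKM (median 18.5) in descending controls. The interaction was -0.19 ± 0.12 for Eif2ak3, 0.39 ± 0.27 for Dnajb9, -0.22 ± 0.16 for Ern1, -0.20 ± 0.17 for Ero1lb and -0.13 ± 0.16 for Syvn1. It was -0.13 ± 0.35 for Hspa5, -0.01 ± 0.18 for Xbp1, 0.05 ± 0.18 for Atf4, -0.12 ± 0.27 for Ddit3 and 0.10 ± 0.44 for Muc2. Of the goblet cell genes it was -0.32 ± 0.40 for Ern2, -0.0024 ± 0.42 for Agr2 and -0.39 ± 0.25 for Creb3l1. Of the other ER genes 0 of 116 were called, and 0 had an unadjusted p under 0.05.

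The regions of the colon were compared within each genotype. Muc2 ran from 2516 to 7150 FPKM in ascending mutants against 381 to 1358 FPKM in descending mutants, and from 1923 to 8018 FPKM in ascending controls against 456 to 2136 FPKM in descending controls. Groups of the same genotype overlapped in controls only, through descending control A2 and ascending control B1. The log2 difference was 2.79 ± 0.26 in mutants (adjusted p = 2.5e-07) and 2.74 ± 0.36 in controls (adjusted p = 6.5e-05). Few genes of the set differed with it. In mutants 1 of the 36 genes was called higher and 5 were called lower in the ascending colon, against 44.0% of all 12203 genes called, 14.3% higher and 29.7% lower. In controls 1 of the 36 genes was called, against 37.9% of 12515 genes, and it was called higher, against 12.8%. The median difference was -0.03 in either genotype, against -0.16 for all genes in mutants and -0.14 in controls.

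Dnajb9 was the gene called higher in the ascending colon of mutants. It ran from 10.97 to 18.9 FPKM (median 13.4) in ascending mutants against 3.48 to 12.1 FPKM (median 9.11) in descending mutants. Only ascending mutants A2 and C3, at 10.97 and 11.2 FPKM, fell within the descending range. The difference was 0.66 ± 0.20 (adjusted p = 0.012), and within cages A, B and C it was 0.33, 0.66 and 0.99. The 5 genes called lower included 3 sensors, so that Ern1, Eif2ak3 and Atf6 all fell in ascending against descending mutants. Ern1 ran from 10.1 to 16.6 FPKM (median 11.1) in ascending mutants against 12.1 to 17.9 FPKM (median 15.3) in descending mutants, and mutant B1 again was the only high ascending library. Its difference was -0.36 ± 0.09 (adjusted p = 0.0054). Eif2ak3 ran from 8.17 to 11.5 FPKM (median 10.6) in ascending mutants against 10.4 to 14.9 FPKM (median 13.5) in descending mutants, where only A1, at 10.4 FPKM, fell within the ascending range. The difference was -0.34 ± 0.10 (adjusted p = 0.0091). Atf6 differed by -0.29 ± 0.10 (adjusted p = 0.024), with 7.29 to 11.5 FPKM in ascending mutants against 8.23 to 14.4 FPKM in descending mutants. Herpud1 ran from 27.2 to 45.5 FPKM (median 37.3) in ascending mutants against 42.9 to 70.9 FPKM (median 47.2) in descending mutants and differed by -0.42 ± 0.13 (adjusted p = 0.016). Creld2 ran from 7.37 to 19.6 FPKM (median 14.4) in ascending mutants against 13.6 to 28.5 FPKM (median 19.8) in descending mutants and differed by -0.49 ± 0.17 (adjusted p = 0.027). Each of the 5 was lower in the ascending colon within all 3 cages: Creld2 by -0.65, -0.80 and -0.12, Herpud1 by -0.72, -0.42 and -0.11, Ern1 by -0.39, -0.12 and -0.48, Eif2ak3 by -0.14, -0.40 and -0.51 and Atf6 by -0.19, -0.47 and -0.27 in cages A, B and C. Hspa5 differed by -0.28 ± 0.25, Xbp1 by 0.02 ± 0.12, Atf4 by 0.23 ± 0.11 and Ddit3 by 0.09 ± 0.19, none of them called.

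The calls in mutants depended on the scaling and on single libraries. FPKM put the median of all genes at -0.16 between regions, and with median-of-ratios scaling that median was -0.03. Among all genes called, 32.6% were higher in the ascending colon with FPKM and 50.5% with that scaling. Under it 6 of the 36 genes were called, all higher, where 2325 of all 12193 genes were called higher and 2283 lower. Only Dnajb9 was called both ways, at 0.81 (adjusted p = 0.0041). The 5 lower genes kept their sign but were no longer called: Creld2 was at -0.34 (adjusted p = 0.12), Herpud1 at -0.26 (adjusted p = 0.15), Ern1 at -0.21 (adjusted p = 0.10), Eif2ak3 at -0.20 (adjusted p = 0.091) and Atf6 at -0.15 (adjusted p = 0.25). Relative to the median of all genes, 22 of the 36 genes were higher in the ascending colon under either scaling. Without descending mutant C1 the count was 16, with 3 higher and 13 lower, where 5963 of all 12193 genes were called. The median of the 36 genes was then -0.19. Without ascending mutant B1, descending mutant A2 or descending mutant B1 in turn, Atf6 was not called, and without ascending mutant A3, descending mutant A3 or descending mutant B2 in turn Creld2 was not called.

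In controls the gene called was Dnajb11, an HSP40 co-chaperone of BiP. It ran from 29.5 to 40.6 FPKM (median 35.8) in ascending controls against 24.7 to 30.4 FPKM (median 26.1) in descending controls, and only ascending control C1, at 29.5 FPKM, lay within the descending range. The difference was 0.38 ± 0.09 (adjusted p = 0.0044), and within cages A, B and C it was 0.48, 0.47 and 0.14. In mutants Dnajb11 was 31.6 to 41.9 FPKM in the ascending colon against 19.2 to 43.4 FPKM in the descending colon, with a difference of 0.25 that was not called. Dnajb11 was called in controls under both other scalings as well, at 0.53 with median-of-ratios scaling and 0.40 with quantile normalization. The count of called genes was 5 with median-of-ratios scaling, all higher, where 53.2% of the called genes of the table were higher against 33.7% with FPKM. Under that scaling 2141 of all 12494 genes were called higher. Without descending control A2 the count was 11, with 4 higher and 7 lower, where 5468 of all 12458 genes were called. Without that library and ascending control B1 the count was 9, with 3 higher and 6 lower, where 5348 of all 12440 genes were called. The count was 2 without descending control B1, ascending control A2, ascending control B1 or ascending control B2 in turn. Of all genes 4829 of 12550, 4237 of 12495, 4491 of 12503 and 4504 of 12507 were called in these fits. P4hb, the most abundant gene of the set, differed by 0.53 in mutants, from 168 to 303 FPKM in ascending mutants against 70.8 to 324 FPKM in descending mutants, and by 0.40 in controls, and was called in neither (adjusted p = 0.051 in mutants). Hspa5 differed by -0.17 ± 0.19 in controls, Xbp1 by 0.03 ± 0.13, Atf4 by 0.20 ± 0.13 and Ddit3 by 0.22 ± 0.17.

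Of 116 other ER genes tested, 12 were higher and 21 lower in ascending against descending mutants, against 14.3% and 29.7% of all genes. In ascending against descending controls 13 were higher and 17 lower, against 12.8% and 25.1% of all genes. Some of these genes differed by more than any gene of the set. The stress-induced nuclear protein Nupr1 was higher by 1.71 ± 0.22 in mutants and 1.97 ± 0.26 in controls, and the ER mannosidase Edem3 by 0.98 ± 0.13 and 0.96 ± 0.13. The prolyl isomerase Fkbp9 was lower by -1.62 ± 0.19 in mutants and -1.23 ± 0.19 in controls, and Ddit4, an mTOR inhibitor raised by stress, by -1.33 ± 0.19 and -1.35 ± 0.18. Fam8a1, a cofactor of Syvn1, was lower by -0.72 ± 0.10 in mutants and -0.83 ± 0.11 in controls. The thioredoxin Tmx4 was lower by -0.74 ± 0.11 in mutants, and Creb3l3, a hepatic and intestinal relative of ATF6, was higher by 1.31 ± 0.24 in controls. Creb3l1 was lower by -0.84 ± 0.15 in mutants (adjusted p = 0.00031) and differed by -0.42 ± 0.19 in controls (adjusted p = 0.11). Ern2 (-0.19 ± 0.21 in mutants, 0.19 ± 0.27 in controls) and Agr2 (0.10 ± 0.27 and 0.12 ± 0.36) were not called. Smooth muscle markers were lower in the ascending colon for all 8 genes tested in mutants, with a summed median of 26.5 FPKM in ascending against 109 FPKM in descending mutants. Their part in these differences was not tested.

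**Figure D3:**
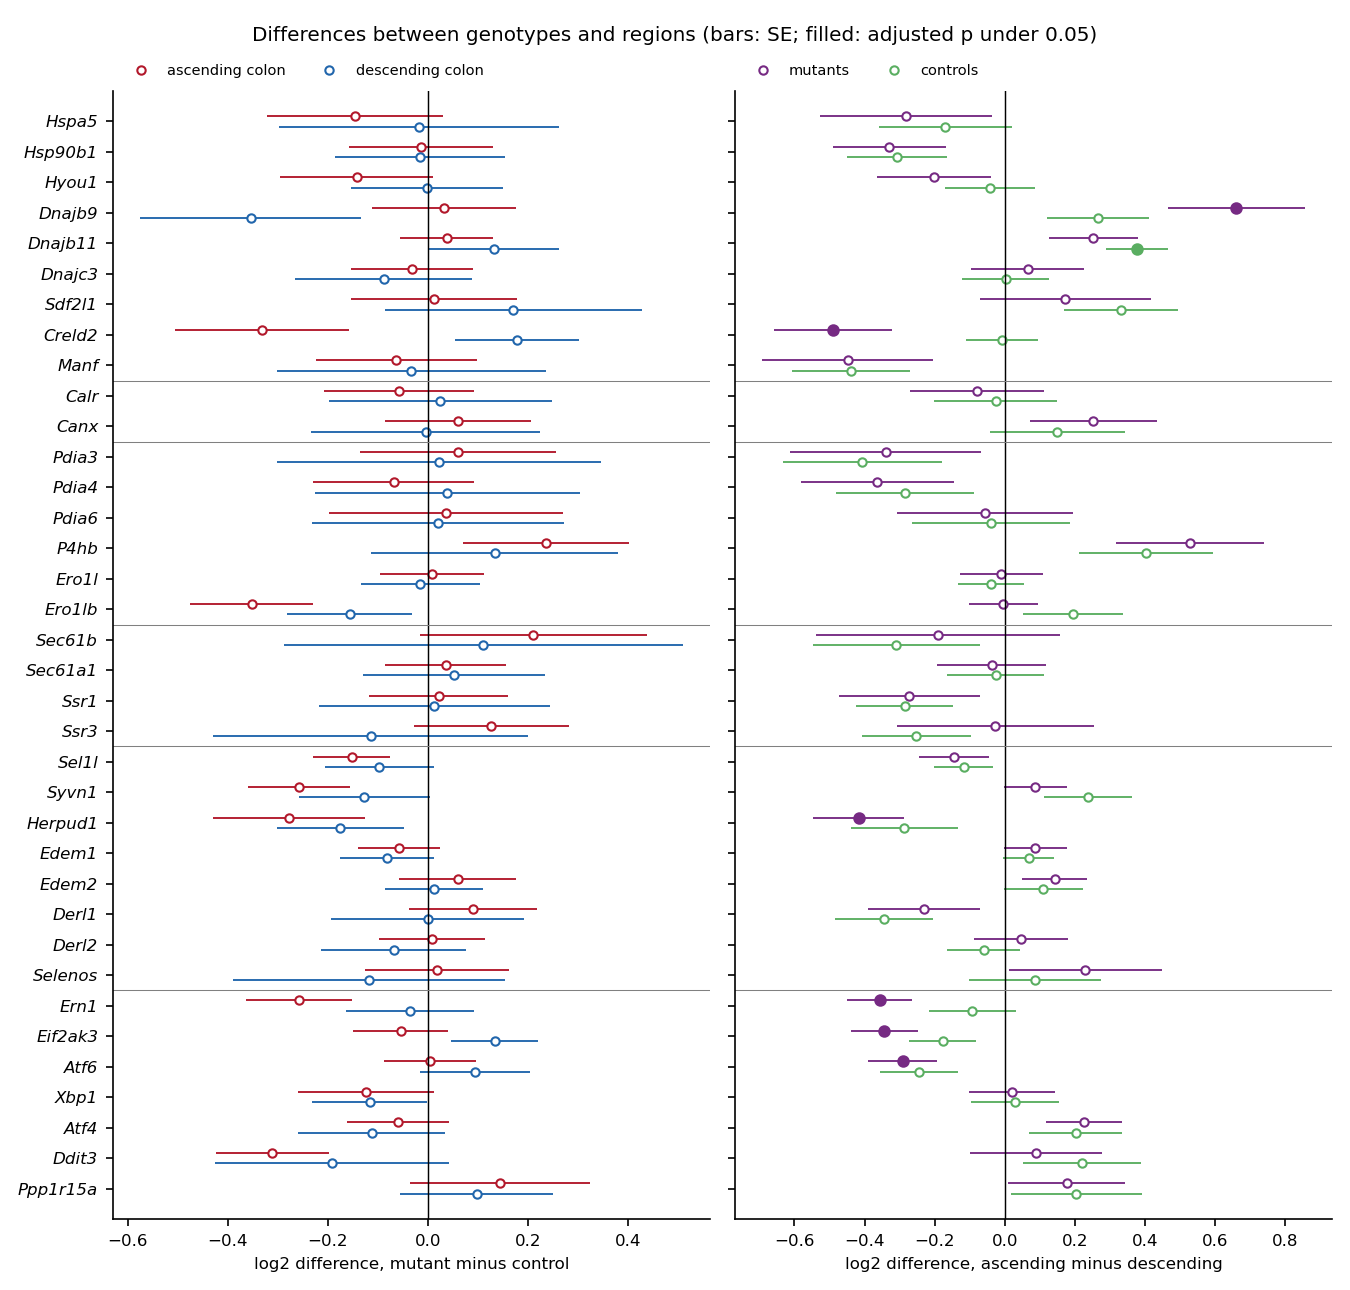
Log2 differences with their SE for each of the 36 tested genes (down the page by role): mutants minus controls in the ascending and descending colon, and ascending minus descending colon in mutants and in controls; filled points have an adjusted p under 0.05. No point is filled for genotype; for region, 6 are filled in mutants (Dnajb9 to the right of 0; Creld2, Herpud1, Ern1, Eif2ak3 and Atf6 to the left) and Dnajb11 alone is filled in controls.

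Cages were compared within each region with genotype as a covariate. None of the 36 genes was called in the ascending colon (limma, moderated F test), against 1.32% of 12178 genes, and 15 of the 36 genes and 1896 of all genes had an unadjusted p under 0.05. Hspa5 was 65.8 to 90.8 FPKM in the 3 mutants and 85.5 and 92.4 FPKM in the 2 controls of cage A. It was 32.4 and 68.7 FPKM in the 2 mutants and 57.1 to 89.2 FPKM in the 3 controls of cage B, and 42.6 to 55.3 FPKM in the 3 mutants and 37.6 and 37.9 FPKM in the 2 controls of cage C. All 5 libraries of cage C were therefore below all 5 of cage A, by a fitted -0.85 log2 units (adjusted p of that contrast = 0.041, and over the 3 cages 0.11). The contrast of cage C with cage A was called for 374 of all 12178 genes. Other measures separated the same cages: goblet cell marker sums were 3952 to 6770 FPKM in cage C against 9115 to 12910 FPKM in cage A, and heat shock sums 189 to 237 FPKM against 268 to 351 FPKM. Muc2 differed by -1.17 in cage C against cage A (adjusted p of the contrast = 0.071). Their part in the cage differences was not tested. Ddit3 ran the other way, 9.45 to 17.5 FPKM in cage C against 6.86 to 10.0 FPKM in cage A, a difference of 0.57 (adjusted p of the contrast = 0.035; over the 3 cages 0.092). In cage C against cage A, Pdia3 differed by -0.78, Ssr1, a subunit of the translocon-associated complex, by -0.58, the BiP co-chaperone Dnajc3 by -0.53 and Atf6 by -0.40, with adjusted p-values over the 3 cages of 0.13 to 0.19. Muc2 had an adjusted p of 0.18, Agr2 of 0.063, Xbp1 of 0.36, Atf4 of 0.51, Ern2 of 0.75 and Creb3l1 of 0.45. Without ascending mutant B1, which had the lowest Hspa5, 7 of the 36 genes were called, against 581 of all 12155 genes.

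Between cages of the descending colon 0 of the 36 genes were called, against 0.597% of 12219 genes, and 3 of the 36 genes and 1619 of all genes had an unadjusted p under 0.05. The lowest p was that of Sdf2l1, a BiP-associated protein, at 0.0067 (adjusted p = 0.19). It was 5.58 to 18.4 FPKM in cage C and 18.3 to 53.8 FPKM in cage A. Ero1lb, the large HSP70-type chaperone Hyou1, the mannosidase-like Edem1, Xbp1 and Creld2 followed with adjusted p-values of 0.36 to 0.45. The adjusted p was 0.61 for Hspa5, 0.81 for Atf4, 0.73 for Ddit3, 0.58 for Muc2, 0.76 for Ern2, 0.87 for Agr2 and 0.99 for Creb3l1. Whether the genotype difference depended on the cage was tested as well. In the ascending colon 0 of the 36 genes were called, against 0.0% of 12178 genes, and 2 of the 36 genes and 1264 of all genes had an unadjusted p under 0.05. These were Sec61b, a subunit of the Sec61 channel, and Sdf2l1, at limma p-values of 0.028 and 0.033 (adjusted p = 0.45 for both). Mutant minus control differences within cages A, B and C were 0.24, -0.51 and 0.90 for Sec61b and -0.28, -0.27 and 0.59 for Sdf2l1. Derl1, Hspa5, Pdia3 and Manf followed with adjusted p-values of 0.49 to 0.53, and the adjusted p was 0.77 for Xbp1, 0.71 for Atf4, 0.57 for Ddit3 and 0.94 for Muc2. Of the goblet cell genes, Ern2 had an adjusted p of 0.44, Agr2 of 0.76 and Creb3l1 of 0.89. Without ascending mutant B2, 4 of the 36 genes were called, against 381 of all 12177 genes. For the descending colon 0 of the 36 genes were called, against 0.00818% of 12219 genes, and 0 of the 36 genes and 540 of all genes had an unadjusted p under 0.05. The 6 genes with the lowest p (Ern1, Syvn1, Selenos, Dnajb9, P4hb and Sec61a1) had an adjusted p of 0.88, as did Hspa5, Atf4, Ern2, Agr2 and Creb3l1, and it was 0.92 for Ddit3, 0.96 for Xbp1 and 0.90 for Muc2.

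The relation of the set to Muc2 was examined in each region as the slope of log2(FPKM + 1) of a gene on that of Muc2, with genotype and cage as covariates. A slope of 1 means that a gene changed by the same fold as Muc2. In the ascending colon 9 of the 36 genes had a positive slope past the threshold and none a negative one, against 5.74% of 12177 genes called positive. Slopes were above 0 for 30 of the 36 genes, with a median of 0.32 against 0.08 for all genes. The genes called came from every role except the translocon: 1 of 9 chaperones and co-chaperones, 1 of 2 lectins, 2 of 6 disulfide isomerases and oxidases, 0 of 4 translocon genes, 3 of 8 degradation genes and 2 of 7 sensors and factors.

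Pdia6, an isomerase that acts with BiP, had the steepest slope, 0.77 ± 0.16 (adjusted p = 0.010). It ran from 17.0 to 44.5 FPKM (median 32.4) in ascending mutants against 17.2 to 45.1 FPKM (median 38.7) in ascending controls. Its levels fell into a low and a high range: mutants B1 and C1 and controls B1, C1 and C2 were at 17.0 to 18.3 FPKM, and no other library was below 24.1 FPKM. In those 5 libraries Muc2 was 1923 to 3297 FPKM. Muc2 of ascending mutant C2 also lay within that range, but its Pdia6 was in the high range. Xbp1 followed with 0.42 ± 0.10 (adjusted p = 0.018), Canx with 0.44 ± 0.10 (adjusted p = 0.019), Hyou1 with 0.46 ± 0.11 (adjusted p = 0.023) and Eif2ak3 with 0.28 ± 0.07 (adjusted p = 0.027). Edem2, which starts the mannose trimming of misfolded glycoproteins, had a slope of 0.34 ± 0.09, Selenos, a selenoprotein of the degradation complex, of 0.42 ± 0.11, Herpud1 of 0.44 ± 0.12 and the isomerase Pdia4 of 0.46 ± 0.13 (adjusted p = 0.028, 0.028, 0.036 and 0.038). Hspa5 had a slope of 0.42 ± 0.15 and was not called (adjusted p = 0.11). The most negative slopes were those of Dnajb9 (-0.36 ± 0.12, adjusted p = 0.079), Ppp1r15a (-0.33 ± 0.17), Ddit3 (-0.21 ± 0.11) and Ern1 (-0.15 ± 0.10), none of them called, and Atf4 was at -0.03 ± 0.11.

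Among 116 other ER genes 26 had a positive called slope and 1 a negative one. The plasma cell and goblet cell isomerase Txndc5 (0.85 ± 0.08) and the sulfhydryl oxidase Qsox1 (0.88 ± 0.08) had an adjusted p of 0.00015 each. Creb3l1 had a slope of 0.66 ± 0.09, the asparagine synthetase Asns of 0.71 ± 0.11, the glucosidase Mogs of 0.62 ± 0.10 and Agr2 of 0.99 ± 0.19 (adjusted p = 0.0066). The stress factor Atf3 had the negative slope, -1.19 ± 0.20 (adjusted p = 0.0047), and Ern2 was at 0.02 ± 0.22. Of 14 genes of N-glycan transfer and trimming 9 were called positive. Goblet cell markers other than Muc2 had a positive called slope for 8 of 14 genes, plasma cell markers for 4 of 6 and absorptive colonocyte markers a negative one for 6 of 10, where 5.74% of all genes had a positive and 2.47% a negative called slope. These lists share genes with those above: Agr2, Creb3l1 and Ern2 are goblet cell markers, and Xbp1 and Txndc5 are plasma cell markers. Summed heat shock genes also moved with Muc2 over the 15 ascending libraries (Pearson r = 0.88). The part of these markers in the slopes was not tested.

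The count of 9 rested on few libraries. Without ascending control B1, which had the lowest Muc2 of the region and the highest smooth muscle and distal marker sums, 0 of the 36 genes were called, although the median slope of the set was 0.48. Of all 12148 genes 50 were called without that library. Without it Pdia6 had a slope of 1.04 (adjusted p = 0.063) and Xbp1 of 0.57 (adjusted p = 0.072). The count was 2 without ascending control B2, 1 without ascending mutant B2 and 14 without ascending mutant C2. Of all genes 468 of 12155, 383 of 12176 and 1233 of 12202 were called in these fits. Without both ascending control B1 and ascending mutant C2, the 2 libraries farthest from the median of Muc2, the count was 18. Of all 12177 genes 1219 were then called. Median-of-ratios scaling left 1 gene called, where 43.1% of the called genes of the table had a positive slope against 69.9% with FPKM, and quantile normalization left 2. Of all genes 750 of 12158 and 416 of 12177 were called under these scalings. With the smooth muscle sum as a further covariate 1 gene was called and with the summed FPKM of the library 20. Of all 12177 genes 181 and 1951 were called in these fits. The median slope stayed between 0.21 and 0.55 over all alternatives run.

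In descending libraries 1 of the 36 genes had a called slope, a positive one, against 1.10% of 12218 genes called positive. Slopes were above 0 for 15 of the 36 genes with a median of -0.04, against 0.05 for all genes. The gene was Syvn1, with a slope of 0.35 ± 0.08 (adjusted p = 0.040), and its highest level, 28.6 FPKM, was that of descending control A2, which also had the highest Muc2. The other descending libraries ran from 13.2 to 19.1 FPKM. Ern1 had a slope of 0.32 ± 0.08 (adjusted p = 0.076), again with its highest level, 24.0 FPKM, in descending control A2. Atf4 had a slope of 0.32 ± 0.10, Atf6 of -0.24 ± 0.08, Edem2 of 0.17 ± 0.08 and the derlin Derl1 of -0.30 ± 0.16. Ddit3 was at 0.28 ± 0.21, Hyou1 at 0.17 ± 0.13, Sec61b at -0.38 ± 0.36, Pdia3 at -0.33 ± 0.29, Hspa5 at -0.10 ± 0.26 and Xbp1 at 0.09 ± 0.10. Of 115 other ER genes 3 were called, all positive: Pdia5 (0.65 ± 0.10), Creb3l4 (0.64 ± 0.13) and Creld1 (0.51 ± 0.11). Ern2 had a slope of 0.67 ± 0.23, Agr2 of 0.08 ± 0.26 and Creb3l1 of 0.29 ± 0.13, none called. Without descending control A2 no gene of the set was called, nor were more than 8 of all 12137 genes, and the median slope of the set was 0.22. Of 15 libraries left out in turn, 13 ended the call of Syvn1, and without descending mutant A3 or descending mutant C1 it was called together with Ern1. Of all genes 862 of 12235 and 357 of 12216 were called without A3 and without C1. Among all genes called, 71.1% had a positive slope with FPKM and 49.3% with quantile normalization. Under that normalization 5 genes of the set were called, against 2403 of all 12218 genes.

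The difference between the 2 slopes was tested in a fit of all 30 libraries, added after the data had been seen. It was called for 1 of the 36 genes, Ern1, against 3.38% of 12352 genes: the slope was lower in the ascending than in the descending colon by a fitted -0.47 ± 0.13 (adjusted p = 0.041). Atf6 (0.37 ± 0.11, adjusted p = 0.062) and Eif2ak3 (0.31 ± 0.10, adjusted p = 0.074) followed. It was 0.52 ± 0.33 for Hspa5, 0.32 ± 0.14 for Xbp1, -0.35 ± 0.15 for Atf4 and -0.48 ± 0.26 for Ddit3. The median difference was 0.32, and 29 of the 36 were above 0. Without descending control A2 no gene of the set was called, against 40 of all 12325 genes, and the median difference of the set was 0.07. In all, 14 of the 30 libraries left out in turn ended the call of Ern1. Without descending mutant A3, 7 genes of the set were called, against 1515 of all 12364 genes. Without descending mutant C1, 4 were called, against 987 of all 12339 genes.

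Correlations gave the same relation without covariates, over 15 libraries in each region and 72 relations in all. In the ascending colon Pearson's r with Muc2 had a median of 0.73 over the 36 genes and was above 0 for 31, and 22 had an adjusted permutation p under 0.05 (19 by Spearman's rho). Correlations were not run for the other genes of the table. In ascending slope fits with neither genotype nor cage, 22 of the 36 genes and 1835 of all 12177 genes were called. The permutations shuffled the 15 libraries of a region across genotypes and cages, so differences between cages enter these p-values. Eif2ak3 had the highest r, at 0.91, with rho = 0.92 (permutation p = 1e-05 for each, the smallest that 100000 permutations can give; adjusted p = 0.00072). It was 0.86 without the 2 libraries farthest from the median of Muc2, ascending control B1 and ascending mutant C2, and 0.93 after genotype and cage were taken out. Pdia6 had r = 0.89 and rho = 0.74 (adjusted permutation p of r = 0.0018), and r = 0.93 without those 2 libraries. Ddit3 had r = -0.71 and rho = -0.64 (adjusted permutation p of r = 0.010), and r = -0.81 without those 2. Within a cage there were 5 libraries per region, too few for a correlation, and the median r of the set after genotype and cage were taken out was 0.58. Over the descending libraries the median r was 0.08, and 3 genes had an adjusted permutation p under 0.05: Syvn1 (r = 0.83, rho = 0.81, r = 0.67 without descending control A2 and descending mutant A3), Ern1 (r = 0.76, rho = 0.69, r = 0.66) and Edem2 (r = 0.68, rho = 0.64, r = 0.42). In descending slope fits with neither genotype nor cage, 1 of the 36 genes and 384 of all 12218 genes were called.

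Hspa5 is a common readout of ER folding load, and its own spread between libraries was wide, from 32.4 to 92.4 FPKM in the ascending and from 20.6 to 142 FPKM in the descending colon. In the ascending colon 18 of the other 35 genes had a positive called slope on Hspa5, against 7.0% of 12177 genes, and 1 a negative one, against 5.93%. In the descending colon 23 had a positive called slope, against 22.9% of 12218 genes, and 2 a negative one, against 15.7%. The median slope was 0.56 in the ascending colon, against -0.0017 for all genes, and 0.42 in the descending colon, against 0.02 for all genes. By role, those called positive were all 4 translocon genes and both lectins in either region, 4 of 6 disulfide isomerases and oxidases in either region, and 5 of 8 chaperones in the ascending and all 8 in the descending colon. Of the degradation genes 2 of 8 were called positive in the ascending and 4 of 8 in the descending colon. Differences between roles were not tested.

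Pdia3, a partner of calnexin and calreticulin, followed Hspa5 closely. It ran from 52.1 to 131 FPKM (median 102) in ascending mutants against 51.8 to 137 FPKM (median 112) in ascending controls, and from 31.2 to 223 FPKM (median 139) in descending mutants against 66.9 to 175 FPKM (median 128) in descending controls. Its lowest and highest levels in the descending colon, in mutants C1 and A3, were those of Hspa5 too. Its slope in the ascending colon was 1.07 ± 0.13 (adjusted p = 0.0015), and the descending slope was 1.10 ± 0.12 (adjusted p = 2.4e-05). In the ascending colon Ssr3, of the translocon-associated complex, had a slope of 0.81 ± 0.11, Pdia4 of 0.83 ± 0.12, Manf, a BiP-binding secreted factor, of 0.83 ± 0.12, Hsp90b1 of 0.73 ± 0.12, Sec61b of 1.17 ± 0.19, Pdia6 of 1.19 ± 0.20 and Creld2 of 0.87 ± 0.15, with adjusted p-values of 0.0029 to 0.0049. In the descending colon Pdia4 had a slope of 0.92 ± 0.08, Sec61a1, the channel subunit, of 0.62 ± 0.06, Ssr3 of 1.09 ± 0.11, Selenos of 0.93 ± 0.09, Manf of 0.92 ± 0.10, Sdf2l1 of 0.87 ± 0.09 and Ssr1 of 0.78 ± 0.09, with adjusted p-values of 1.5e-05 to 3.3e-05. Xbp1 was positive in both regions, with an ascending slope of 0.57 ± 0.15 (adjusted p = 0.021) and a descending slope of 0.25 ± 0.08 (adjusted p = 0.024).

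Ddit3, which PERK raises through Atf4, ran against Hspa5 in both regions. It had a slope of -0.48 ± 0.12 in the ascending colon (adjusted p = 0.020). Its descending slope was -0.71 ± 0.13 (adjusted p = 0.00085). Ddit3 was highest, at 21.99 FPKM, in descending mutant C1, the library with the lowest Hspa5, against 5.62 to 10.1 FPKM in the other 7 descending mutants and 6.5 to 13.6 FPKM in descending controls. Its lowest level in the region, 5.62 FPKM, was in descending mutant A3, the library with the highest Hspa5. Ppp1r15a had an ascending slope of -0.34 ± 0.27 (adjusted p = 0.44) and a descending slope of -0.42 ± 0.10 (adjusted p = 0.0040). Atf4 was at -0.13 ± 0.15 and -0.26 ± 0.12, Ern1 at -0.38 ± 0.13 and -0.20 ± 0.11 in the ascending and descending colon, and Syvn1 at -0.21 ± 0.14 in the ascending colon, none of them called. Muc2 itself had an ascending slope of 0.89 ± 0.39 (adjusted p = 0.15) and a descending slope of -0.12 ± 0.30 (adjusted p = 0.79). The difference between the regional slopes on Hspa5 was called for none of 35 genes (limma), against 0.0% of 12352 genes, and 2 of the 35 genes and 483 of all genes had an unadjusted p under 0.05. One was Creld2, with a difference of 0.58 ± 0.17 (limma, unadjusted p = 0.0018), and the other was Dnajb9, with -0.80 ± 0.25, whose slope was -0.11 in the ascending and 0.68 in the descending colon. The difference was 0.32 ± 0.16 for Xbp1, 0.13 ± 0.20 for Atf4, 0.23 ± 0.20 for Ddit3 and 1.01 ± 0.53 for Muc2.

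**Figure D4:**
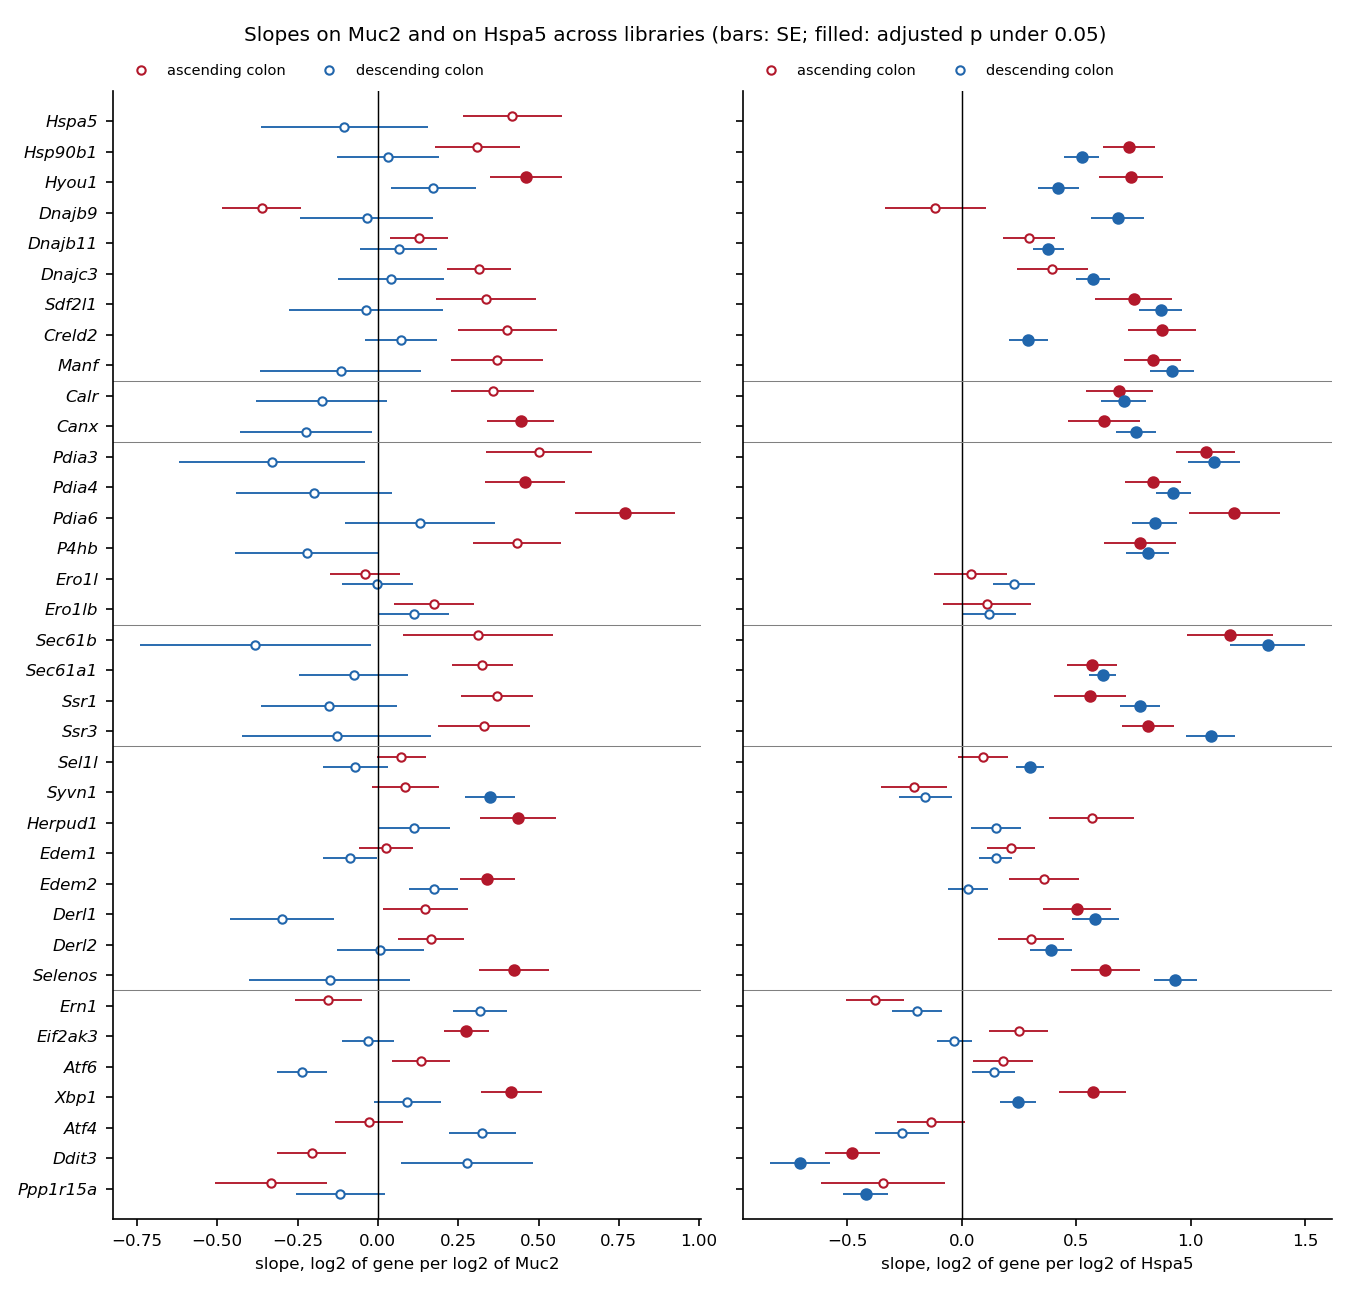
Slopes with their SE of each tested gene (down the page by role) on Muc2 and on Hspa5 in the ascending and descending colon, in log2 units per log2 unit; filled points have an adjusted p under 0.05. Slopes on Hspa5 lie to the right of 0 for 29 of 35 genes in each region, slopes on Muc2 for 30 of 36 in the ascending and 15 of 36 in the descending colon, and Ddit3 lies to the left of 0 on Hspa5 in both regions.

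Other genes of the secretory pathway moved with Hspa5 in the same direction. Of 116 other ER genes tested in the ascending colon 27 had a positive called slope, and of 115 in the descending colon 59 had a positive and 3 a negative one. Among all genes 7.0% were called positive in the ascending colon, and 22.9% positive and 15.7% negative in the descending colon. Of 14 genes of N-glycan transfer and trimming, 10 in the ascending and 14 in the descending colon had a positive called slope. On the ascending side Serp1, a stabilizer of membrane proteins at the channel, had a slope of 0.91 ± 0.12, Tram1 of 0.73 ± 0.11, the oligosaccharyltransferase subunit Ostc of 1.15 ± 0.18, Ssr2 of 0.83 ± 0.15, Stt3a of 0.73 ± 0.13 and Agr2 of 1.5 ± 0.25 (adjusted p = 0.0028 to 0.0052). In the descending colon the signal peptidase subunits Spcs2 (1.00 ± 0.08) and Spcs1 (0.98 ± 0.10), the ribophorin Rpn1 (0.85 ± 0.07), Ssr2 (1.02 ± 0.09), the cyclophilin Ppib (0.75 ± 0.07) and Stt3a (0.88 ± 0.09) led, with adjusted p-values of 1.5e-05 to 1.9e-05. There Agr2 had a slope of 0.69 ± 0.19 (adjusted p = 0.012) and Ern2 of -0.83 ± 0.21 (adjusted p = 0.0074). Ern2 was at -0.75 ± 0.26 in the ascending colon (adjusted p = 0.068), and Creb3l1 was at 0.50 ± 0.25 and 0.24 ± 0.13 in the ascending and descending colon. By promoter, 5 of 7 tested genes with the ERSE letters had a positive called slope on Hspa5 in the ascending and 6 of 7 in the descending colon, against 9 of 21 and 13 of 21 genes whose promoter lacked them and 4 of 7 without a promoter entry in either region. For ascending slopes on Muc2 the counts were 2 of 8 with the letters, 6 of 21 without them and 1 of 7 without an entry. None of these differences was tested.

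The levels of Hspa5 and Ddit3 moved with properties of whole libraries. Over the 15 libraries of a region, Hspa5 and the summed heat shock genes had r = 0.93 and rho = 0.88 in the ascending colon (adjusted permutation p of r = 0.00012 over 36 relations, and r = 0.89 without the 2 libraries farthest from the median). They had r = 0.95 and rho = 0.81 in the descending colon (r = 0.72 without such 2). Hspa5 and the summed FPKM had r = 0.43 in the ascending (adjusted permutation p = 0.24) and r = 0.89 in the descending colon (rho = 0.84, adjusted permutation p = 0.00012). Ddit3 and the summed FPKM had r = -0.57 and -0.87 in the ascending and descending colon. Epithelial markers moved with both genes in the descending colon. Their sum had r = 0.74 and rho = 0.42 with Hspa5 (adjusted permutation p of r = 0.0089; r = 0.23 without the 2 farthest libraries) and r = -0.75 and rho = -0.58 with Ddit3 (adjusted permutation p of r = 0.0089; r = -0.34 without them). Their part in the slopes was not tested. With the summed FPKM as a further covariate 7 of 35 genes were called in the ascending and 0 in the descending colon. Of all genes 125 of 12177 and 0 of 12218 were called in these fits. The median slopes of the set were then 0.54 and 0.42. No gene of the ascending colon was called without ascending mutant B1, or without the 2 libraries farthest from the median of Hspa5 (ascending control C2 and ascending mutant B1), and without ascending mutant B1 none of all genes was called either; Pdia3 then had a slope of 0.99 (adjusted p = 0.35) and Ddit3 of -0.48 (adjusted p = 0.43). In the descending colon 17 were called without descending mutant C1 and 6 without descending mutants A3 and C1. Of all genes 1759 of 12216 were called without descending mutant C1, against 4715 of 12218 in the main fit. Fewer still of all genes were called without descending mutants A3 and C1, so calls were lost across the table as well as in the set. Ddit3, Ppp1r15a and Xbp1 were not called without descending mutant C1. Correlations with Hspa5 over 70 relations had a median r of 0.73 in the ascending colon (26 of 35 genes past an adjusted permutation p of 0.05; 0.69 without the 2 farthest libraries) and of 0.84 in the descending colon (29 of 35; 0.49 without them). After genotype and cage were taken out the medians were 0.74 and 0.87. In slope fits with neither genotype nor cage, 22 of 35 genes and 2057 of all 12177 genes were called in the ascending colon. For the descending colon the counts were 28 of 35 genes and 4968 of all 12218 genes.

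**Figure D5:**
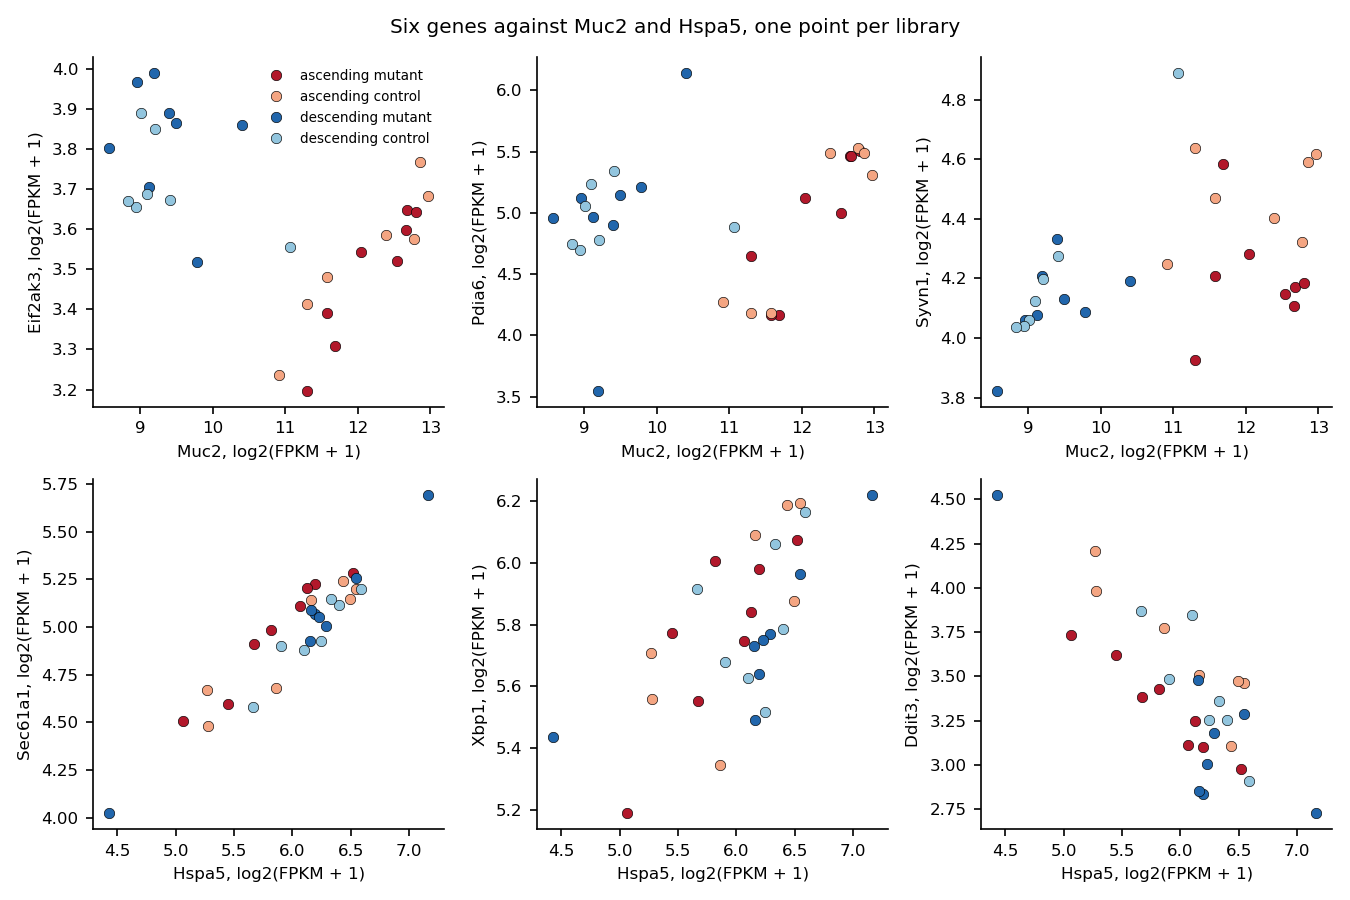
Scatter plots of log2(FPKM + 1) over the 15 libraries of each region: Eif2ak3, Pdia6 and Syvn1 against Muc2, and Sec61a1, Xbp1 and Ddit3 against Hspa5; colour gives genotype and region as in the legend. Eif2ak3 climbs with Muc2 in the ascending colon (r = 0.91) and not in the descending colon (r = -0.33), the highest Syvn1 of the descending colon sits at the highest Muc2 (descending control A2), and Ddit3 is highest where Hspa5 is lowest (descending mutant C1).

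For some genes the reads may be shared, since it is not stated whether counting used the strand. In the GENCODE annotation, exons of Manf, Syvn1, Derl2, Pdia6, Eif2ak3, Sec61a1 and Hsp90b1 overlap exons of a gene on the opposite strand (Dcaf1, Mrpl49, Mis12, Atp6v1c2, Gm43292, Gm44170 and 1810014B01Rik), and exons of Ddit3 overlap Mars and a second entry named Ddit3. Their values are uncertain to that extent.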

How the data were processed

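RNA of 30 pieces of mouse colon was sequenced. Ribosomal RNA was removed from 1 ug (Kapa hyper prep RiboErase), and single reads of 50 bases were taken on a HiSeq3000, per the labels' protocols. The deposited values are FPKM per gene, computed by the authors from reads aligned to GRCm38/mm10; bcl2fastq 2.17, STAR and DESeq2 are named per the submitters' processing notes. The sources used here do not give the gene counter, annotation or gene lengths. FPKM are relative to each library's total, so a large change in a few abundant genes moves all others.

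The FPKM were analysed as log2(FPKM + 1), and all differences are on that scale, which understates changes of low genes. Each fit tested the genes whose mean reached 0.5 FPKM in its libraries, with limma 3.58.1 in R 4.3.3 (lmFit, eBayes with trend, two-sided), with Benjamini-Hochberg adjustment over all genes tested and a threshold of 0.05. Genotype was tested within each region with cage as a covariate, region within each genotype with cage as a covariate, and cage with genotype as a covariate. Slopes on Muc2 or Hspa5 had genotype and cage as covariates. Errors after a difference or slope are SE. Nothing in the labels says more of the replicates than genotype, region, cage and number, so p-values measure the spread between these samples. The script was tested on simulated data with known changes.

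The genes named were those past the threshold, up to 12, or the 6 with the smallest p where none passed; for slopes, the 8 with the smallest adjusted p and the 4 most negative; Hspa5, Xbp1, Atf4, Ddit3 and Muc2 throughout; and up to 6 of the other ER genes, with Ern2, Agr2 and Creb3l1. The genes and lists were chosen with earlier results of these data known. Of 125 other ER genes listed, 119 were in the table. Alternatives were pseudocount, filter, scaling, weights, covariates, a replicate block and leaving out each library and cage.

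Gene positions are those of GENCODE M21 (14472 of 14475 identifiers matched without version). Depth was estimated from the steps of low FPKM values in genes with exon lengths of 300 to 2500 bases; 76.2 to 84.1% of the low values lay on a step. Correlations used permutation tests (SciPy 1.17.1, two-sided, 100000 permutations), which shuffled all libraries of a region without regard to genotype or cage. Python 3.11.15, NumPy 2.4.6, pandas 2.3.3 and Matplotlib 3.10.9 were used for the rest.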

Additional observations from a re-analysis of the deposited data

Results flagged for a closer look

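Of 152 groups of values looked at (each gene of the set and Muc2 in the 4 groups of libraries), 25 held a library far from the others of its group by Dixon's criterion; chance alone gives about 1 in 20 groups. Of the 25, 14 were in descending mutant C1. It was the lowest of the 8 descending mutants for Hspa5 (20.59 FPKM), Manf (4.32 FPKM), Calr (68.47 FPKM), Pdia3 (31.18 FPKM), Pdia4 (20.4 FPKM) and Ero1l (8.91 FPKM). The translocon genes Sec61b (4.5 FPKM), Sec61a1 (15.27 FPKM), Ssr1 (4.81 FPKM) and Ssr3 (10.2 FPKM) and the degradation genes Sel1l (12.49 FPKM), Derl1 (13.2 FPKM) and Derl2 (3.04 FPKM) were likewise lowest there. Ddit3 was highest there (21.99 FPKM).

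Another 5 were in descending control A2, the library with a low sum of distal colon markers. Pdia4 (30.89 FPKM) and Selenos (16.7 FPKM) were lowest of the 7 descending controls there, and Syvn1 (28.64 FPKM), Ern1 (23.96 FPKM) and Muc2 (2135.7 FPKM) were highest. In ascending mutant B1 there were 4: Creld2 (7.37 FPKM), Manf (6.17 FPKM) and Selenos (20.63 FPKM) were lowest and Ern1 (16.63 FPKM) was highest. Derl3 was highest in ascending control B1 (0.31 FPKM), below the 0.5 FPKM needed for testing, and Atf4 was highest in ascending control C1 (77.91 FPKM).

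The slope of Ern1 on Muc2 passed a test of the difference between regions over 30 libraries, by -0.47 in the ascending against the descending colon (limma, adjusted p = 0.041). It was 1 of 36 genes, where 3.38% of all genes were called, so the count is near the background. Leaving out any 1 of 14 of the 30 libraries ended the call, among them descending control A2, which had the highest Muc2 and Ern1 of its region.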

How the results depend on the processing

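The deposited FPKM come with no counts, so counting error and the spread between libraries cannot be told apart, and ascending mutants were the shallowest group. Of the recomputed counts of called genes, 357 were within 1.5 times the reported count and 90 were not. Of the recomputed medians, 342 moved by less than the median SE of the single genes of the set and 9 by more. That SE is not the error of a median. Of the recomputed values of single genes, 5575 kept their sign and side of the threshold, 169 changed sign, 312 lost and 87 gained a call. A pseudocount of 0.1, other filters on low values and a shared estimate of spread changed no count by over 1.5 times. The fits with depth, summed FPKM or smooth muscle markers, without the 2 libraries farthest from the median of Hspa5, without ascending control B1 and descending control A2, and without descending mutant C1 were chosen after seeing the data. The number of all genes called moved between fits as well. For ascending against descending mutants it was 5368 of 12203 in the main fit and 6540 of 12203 with array quality weights. The cause of the changes below was not tested.

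Whether the numbers in the titles pair the libraries could not be decided. Same-numbered ascending and descending libraries correlated by -0.26 to 0.36 (median -0.03, over 0.1 in 4 of 15 pairs), and same-numbered mutants and controls by -0.18 to 0.38 (over 0.1 in 6 of 12). In groups of 2 libraries, same-numbered and other-numbered pairs gave the same value with opposite sign, so these correlations cannot settle it. With the replicate block the count was 6 for ascending against descending mutants (2 higher and 4 lower, against 1 and 5 without it; Atf6 was no longer called, adjusted p = 0.055), 1 for controls and 0 for genotype in either region and for the interaction. Of all genes 5219 of 12203 were called with the block in mutants and 4236 of 12515 in controls. With the block the sign turned for Ddit3 (0.0050) and Ern2 (0.18) for mutants against controls in the descending colon.

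In this paragraph counts of called genes are followed in brackets by the number called among all genes tested. The exception is the fits without the 2 libraries farthest from the median of Hspa5. With median-of-ratios scaling the count of called genes was 5 (4024 of 12494) for ascending against descending controls. It was 1 (750 of 12158) for ascending slopes on Muc2 and 0 (127 of 12199) for descending slopes on Muc2. Under that scaling the sign turned for Hspa5 at 0.034, Muc2 at 0.0070 and Ern2 at 0.042 for mutants against controls in the descending colon, Ern2 at -0.17 for ascending slopes on Muc2. With quantile normalization the count of called genes was 3 (4379 of 12203) for ascending against descending mutants and 2 (4203 of 12515) for ascending against descending controls. It was 2 (416 of 12177) for ascending slopes on Muc2 and 5 (2403 of 12218) for descending slopes on Muc2. For the regional difference of Muc2 slopes it was 3 (974 of 12352). After that normalization the sign turned for Muc2 at -0.19 for mutants against controls in the ascending colon, Muc2 at -0.24 for the interaction of region and genotype, Xbp1 at -0.035 and Agr2 at -0.13 for ascending against descending mutants, Xbp1 at -0.014 and Agr2 at -0.049 for ascending against descending controls, Atf4 at 0.042 for ascending slopes on Muc2. With array quality weights the count of called genes was 2 (746 of 12178) for mutants against controls in the ascending colon. It was 16 (6540 of 12203) for ascending against descending mutants and 11 (6232 of 12515) for ascending against descending controls. For cages it was 15 (1579 of 12178) in the ascending and 2 (973 of 12219) in the descending colon. For slopes on Muc2 it was 15 (2537 of 12177) in the ascending and 0 (70 of 12218) in the descending colon. For the regional difference of Muc2 slopes it was 0 (438 of 12352). Under these weights the sign turned for Muc2 at -0.029 for mutants against controls in the ascending colon, Hspa5 at 0.032, Muc2 at 0.21 and Ern2 at 0.040 for mutants against controls in the descending colon, Atf4 at -0.037, Muc2 at -0.24 and Agr2 at 0.19 for the interaction of region and genotype, Atf4 at 0.0082 for ascending slopes on Muc2, Hspa5 at 0.10 for descending slopes on Muc2, Muc2 at 0.0089 for descending slopes on Hspa5. With no cage covariate the count of called genes was 23 (1977 of 12177) for ascending slopes on Muc2. In that fit the sign turned for Ern2 at 0.041 for mutants against controls in the descending colon, Ern2 at -0.12 for ascending slopes on Muc2, Hspa5 at 0.087 for descending slopes on Muc2, Muc2 at 0.10 for descending slopes on Hspa5. With neither genotype nor cage the count of called genes was 22 (1835 of 12177) for ascending slopes on Muc2. There the sign turned for Ern2 at -0.13 for ascending slopes on Muc2, Hspa5 at 0.087 for descending slopes on Muc2, Muc2 at 0.10 for descending slopes on Hspa5. Without cage A the count of called genes was 3 (4542 of 12281) for ascending against descending mutants and 9 (4582 of 12420) for ascending against descending controls. It was 0 (245 of 12204) for ascending slopes on Muc2 and 0 (0 of 12127) for descending slopes on Muc2. For the regional difference of Muc2 slopes it was 0 (0 of 12348). Also without cage A the sign turned for Atf4 at 0.032, Muc2 at 0.18 and Ern2 at 0.39 for mutants against controls in the descending colon, Hspa5 at 0.18, Xbp1 at 0.069, Atf4 at -0.10 and Agr2 at 0.36 for the interaction of region and genotype, Agr2 at -0.12 for ascending against descending mutants, Xbp1 at -0.018 and Agr2 at -0.32 for ascending against descending controls, Hspa5 at 0.035 for descending slopes on Muc2, Muc2 at 0.0049 for descending slopes on Hspa5. Without cage B the count of called genes was 1 (652 of 12115) for mutants against controls in the ascending colon. It was 3 (4162 of 12147) for ascending against descending mutants and 0 (2069 of 12610) for ascending against descending controls. For cages in the ascending colon it was 16 (1599 of 12115). For slopes on Muc2 it was 0 (0 of 12114) in the ascending and 0 (24 of 12266) in the descending colon. It was 0 (0 of 12114) for ascending slopes on Hspa5 and 0 (1 of 12342) for the regional difference of Muc2 slopes. Also without cage B the sign turned for Hspa5 at 0.069 and Muc2 at -0.023 for mutants against controls in the ascending colon, Hspa5 at 0.020 and Creb3l1 at -0.018 for mutants against controls in the descending colon, Hspa5 at 0.049, Xbp1 at 0.10 and Agr2 at 0.12 for the interaction of region and genotype, Xbp1 at -0.043 for ascending against descending controls, Ppp1r15a at 0.43, Atf4 at 0.033 and Ern2 at -0.025 for ascending slopes on Muc2, Atf4 at 0.22 for ascending slopes on Hspa5. Without cage C the count of called genes was 0 (55 of 12220) for descending slopes on Muc2 and 0 (0 of 12208) for ascending slopes on Hspa5. It was 7 (467 of 12220) for descending slopes on Hspa5 and 0 (574 of 12347) for the regional difference of Muc2 slopes. Also without cage C the sign turned for Atf4 at 0.042, Muc2 at -0.026 and Ern2 at 0.030 for mutants against controls in the ascending colon, Hspa5 at 0.21 for mutants against controls in the descending colon, Ddit3 at 0.20 and Ern2 at 0.18 for the interaction of region and genotype, Xbp1 at -0.043 and Ern2 at 0.11 for ascending against descending mutants, Hspa5 at 0.10 for ascending against descending controls. Without the 2 libraries farthest from the median of Muc2 the count of called genes was 18 (1219 of 12177) for ascending slopes on Muc2. It was 0 (0 of 12218) for descending slopes on Muc2. Without those libraries the sign turned for Ern2 at -0.64 for ascending slopes on Muc2, Hspa5 at 0.21 for descending slopes on Muc2. Without the 2 libraries farthest from the median of Hspa5 the count of called genes was 0 for ascending slopes on Hspa5 and 6 for descending slopes on Hspa5. Without these libraries the sign turned for Syvn1 at 0.10 and Atf4 at 0.10 for ascending slopes on Hspa5, Creb3l1 at -0.014 for descending slopes on Hspa5. With estimated depth as a further covariate the count of called genes was 0 (7 of 12218) for descending slopes on Muc2. With depth in the fit the sign turned for Derl1 at 0.058, Ddit3 at -0.037, Sec61b at 0.15, Pdia3 at 0.20 and Hspa5 at 0.33 for descending slopes on Muc2, Muc2 at 0.22 for descending slopes on Hspa5. With summed FPKM as a further covariate the count of called genes was 20 (1951 of 12177) for ascending and 3 (347 of 12218) for descending slopes on Muc2. It was 7 (125 of 12177) for ascending and 0 (0 of 12218) for descending slopes on Hspa5. With that sum in the fit the sign turned for Sec61b at 0.030, Pdia3 at 0.021 and Hspa5 at 0.20 for descending slopes on Muc2, Syvn1 at 0.13 and Atf4 at 0.057 for ascending slopes on Hspa5, Atf4 at 0.24, Ern1 at 0.15, Muc2 at 0.84 and Ern2 at 0.42 for descending slopes on Hspa5. With smooth muscle markers as a further covariate the count of called genes was 1 (181 of 12177) for ascending slopes on Muc2. It was 0 (130 of 12218) for descending slopes on Muc2. With those markers in the fit the sign turned for Atf4 at 0.0066 for ascending slopes on Muc2. Without ascending control B1 and descending control A2 the count of called genes was 9 (5348 of 12440) for ascending against descending controls. Without both controls the sign turned for Muc2 at -0.13 for mutants against controls in the ascending colon, Atf4 at 0.041, Muc2 at 0.25 and Ern2 at 0.31 for mutants against controls in the descending colon.

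Leaving out each library in turn gave counts of 5 to 16 for ascending against descending mutants, 1 to 11 for ascending against descending controls, 0 to 7 for cages in the ascending colon, 0 to 4 for genotype by cage in the ascending colon, 0 to 14 for ascending slopes on Muc2, 0 to 2 for descending slopes on Muc2, 0 to 21 for ascending slopes on Hspa5, 17 to 26 for descending slopes on Hspa5 and 0 to 7 for the regional difference of Muc2 slopes. It gave 0 throughout for the other counts. Among all genes tested, the number called ran from 4740 to 5963 for ascending against descending mutants and from 3860 to 5468 for controls. It ran from 44 to 581 for cages and from 0 to 381 for genotype by cage in the ascending colon. For slopes on Muc2 it ran from 50 to 1233 in the ascending and from 8 to 862 in the descending colon. For slopes on Hspa5 the ranges were 0 to 2329 and 1759 to 5004, and for the regional difference of Muc2 slopes 14 to 1515. For mutants against controls in the ascending colon, Atf4 ran from -0.12 to 0.0076, Hspa5 ran from -0.22 to 0.041 and Muc2 ran from -0.13 to 0.16. For mutants against controls in the descending colon, Atf4 ran from -0.19 to 0.041, Ern2 ran from -0.15 to 0.31, Hspa5 ran from -0.20 to 0.19 and Muc2 ran from -0.22 to 0.25. For the interaction of region and genotype, Agr2 ran from -0.16 to 0.27, Atf4 ran from -0.10 to 0.13, Ddit3 ran from -0.27 to 0.041, Hspa5 ran from -0.33 to 0.060, Muc2 ran from -0.20 to 0.27 and Xbp1 ran from -0.066 to 0.090. For ascending against descending mutants, Agr2 ran from -0.047 to 0.26 and Xbp1 ran from -0.028 to 0.090. For ascending against descending controls, Agr2 ran from -0.10 to 0.35 and Xbp1 ran from -0.039 to 0.10. For ascending slopes on Muc2, Atf4 ran from -0.16 to 0.026 and Ern2 ran from -0.49 to 0.23. For descending slopes on Muc2, Agr2 ran from -0.19 to 0.87, Hspa5 ran from -0.33 to 0.44, Pdia3 ran from -0.53 to 0.18, Sec61b ran from -0.64 to 0.087 and Xbp1 ran from -0.025 to 0.30. For ascending slopes on Hspa5, Atf4 ran from -0.19 to 0.13 and Syvn1 ran from -0.31 to 0.11. For descending slopes on Hspa5, Muc2 ran from -0.35 to 0.31.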
